A study of Mus musculus with 502 samples.

Results

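Silencer arrays in LNCap are places where the authors' LNCap silencer list holds 4 or more silencers in a row along chromosomes 1 to 22, with each gap between neighbours at most 500 bp. The arrays were chosen by the positions of the LNCap calls, which are themselves measured values. The rule picked 294 arrays, which hold 1250 of the 131664 autosomal LNCap silencers (0.949%). The whole series lists 397136 usable silencers in 3 cell lines. The lines used here were LNCap, an androgen-sensitive prostate cancer line, in which the arrays were defined, and 2 lines for comparison. These were K562, from a leukaemia and with erythroid features, and 293T, from human embryonic kidney cells. All 3 lines shared the same reporter vector and were grown in the same serum medium, and the labels name no drug, genotype or treatment that separates them. Each line is a single established line, so a difference between lists is a difference between lines and cannot be told apart from a difference between their libraries.

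A silencer is a stretch of DNA that lowers transcription from a promoter. Repressor proteins bind short motifs in it and recruit co-repressors such as histone deacetylases or Polycomb complexes, which leave chromatin less open to the transcription machinery. The same DNA can be silent in one cell type and neutral or activating in another, because the set of bound proteins differs. In Ss-STARR-seq, genome fragments are placed in a reporter plasmid, the plasmids are put into cells, and a fragment that yields less RNA than its share of the plasmid DNA scores as a silencer. A plasmid carries a fragment away from its chromosome, so the assay reads the DNA sequence and the proteins of the cell rather than the chromatin at the fragment's own place.

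The 502 libraries of the series were 219 of LNCap, 40 of them plasmid input DNA and the rest output RNA, 180 of K562 output RNA, and the remainder of 293T, 1 of them input DNA. They are represented by 1 deposited list per line. No list had a replicate, so no value below could be set against a spread between replicates, and no test over samples was possible. The deposited lists hold no read counts, so their depth is unknown. Every library is labelled as mouse although the lines and the hg38 build are human, and the regions were read as human. The identity of the lines could not be checked against marker genes, because the lists hold regions only.

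The arrays were mostly short. Of the 294 arrays, 240 held 4 silencers, 47 held 5, 4 held 6, and 1 each held 8, 9 and 14. From the first start to the last end they spanned a median of 800 bp, with quartiles at 600 and 1010.5 bp and extremes of 350 and 5500 bp. Silencers filled a median of 47.1% of that span (13.9% to 84.2%). The cloned fragments were 300 to 400 bp long per the labels, and 284 of the 294 arrays (96.6%) spanned more than 400 bp. These 284 arrays were therefore longer than 1 fragment, and 46.3% of all arrays were over 2 times as long as the longest fragment.

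Within arrays the spacing followed steps of 50 bp, the smallest and commonest width in the list, here called a window. Steps of this size are not particular to arrays. Widths were multiples of 50 bp in 92.3% of members and in 91.7% of all autosomal LNCap silencers. Shares of gap sizes in shorter runs were not worked out. Of the 956 gaps between neighbouring members, 453 (47.4%) were exactly 50 bp, 16% were 100 bp and 67 (7.01%) were 150 bp. A gap of 50 bp is the width of 1 window that is not in the list. In 26 arrays every gap was 50 bp, and in 38.4% of arrays no gap exceeded 150 bp. Whether such a gap is DNA without silencer activity or a window that narrowly missed the authors' threshold was not tested, since the lists give no value for windows that were not called.

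Most members were single windows. The median width was 50 bp, and 57.5% of the members were exactly 50 bp wide, against 60.7% of the 130414 other autosomal LNCap silencers. The mean width was 95.5 bp in arrays and 91.2 bp in the others. The widest member covered 950 bp. In 58.8% of arrays all members started at the same offset within the 50 bp grid. Among the arrays that did not lie wholly on the main grid (starts at 0 or 1 modulo 50), 43 still had 1 shared offset, and the rest mixed offsets.

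The activity score is the authors' own, has 1 decimal, is never below 2, and has a scale that the sources used here do not state. It comes from the same LNCap calls that formed the arrays and is given as a description only. The median score was 2.4 in arrays (quartiles 2.1 and 2.7, highest 7.9) and 2.2 in other LNCap silencers (highest finite score 15.7). A score of 3 or more was held by 208 members (16.6%) and by 11.6% of the others. Above the list's median of 2.2 lay 768 members (61.4%), against 49.3% of the others and 49.4% of all autosomal LNCap silencers. An infinite score was held by 13 of the 130414 other silencers and by none of the 1250 members, too few to compare.

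Scores varied within an array. The range from lowest to highest member had a median of 0.7 and reached 5.8. In 54.8% of arrays every member scored under 3, and in 50 arrays (17%) every member lay above the list's median. The 662 inner members had a median of 2.4 and the 588 members at the ends had a median of 2.3, with 17.5% and 15.6% at 3 or more. The highest score of the array belonged to an inner member in 181 arrays (61.6%), and inner members were 662 of all 1250. A tie between an inner and an end member counted as inner. More than every second array was thus a row of calls that all scored under 3, on a scale that is not stated.

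Runs just short of the rule had scores close to those of the shortest arrays, but shorter spans. The 240 runs of 4 had a median score of 2.4 and a median span of 750 bp, and the 1810 runs of 3 had a median score of 2.3 and a median span of 450 bp. Inside the gap limit, the 26 arrays with a gap of over 450 bp had a median score of 2.3, and 30 of their silencers (27%) overlapped a K562 silencer and 4 (3.60%) a 293T silencer. Outside it, gaps of up to 550 bp would have added 28 arrays with a median score of 2.3, in which 27 silencers (23.7%) overlapped K562 and 3 (2.63%) overlapped 293T. The scores were thus alike on both sides of the limit.

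The same rule found fewer arrays in the comparison lines. LNCap had 2.23 arrays per 1000 autosomal silencers, K562 had 1.87 (240 arrays, 1037 of 128489 silencers, 0.807%), and 293T had 1.71 (204 arrays, 846 of 119180, 0.710%). The largest array had 14 silencers in LNCap, 11 in K562 and 7 in 293T. Median spans were 800 bp in LNCap, 780 bp in K562 and 713.5 bp in 293T. The order of these values rests on 1 list per line and on thresholds that the authors' files do not state.

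Silencers in LNCap arrays were called in the other lines more often than the other LNCap silencers. The rule did not use the K562 and 293T calls. No library used here is labelled as K562 input DNA, and which input stands behind each list is not given in the sources used here, so the lists may share an input. By at least 1 bp, 299 of 1250 members (23.9%, 95% Wilson interval 21.6 to 26.4) overlapped a K562 silencer, against 15.3% of the other LNCap silencers (15.1 to 15.5). The share over all autosomal LNCap silencers was 15.3%. A 293T silencer overlapped 61 members (4.88%, 3.82 to 6.22), against 3.20% of the others (3.11 to 3.30) and 3.22% of all. The ratio of members to others was 1.57 for K562 and 1.53 for 293T. These intervals cover counting error only and take silencers as independent, which neighbours in an array are not.

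Most members were nevertheless called in LNCap alone. Neither comparison list held 911 members (72.9%), against 82.3% of the other LNCap silencers, and both lists held 21 members (1.68%), against 0.786%. Where a member overlapped K562, the 2 intervals were identical in 12 cases (4.01% of the overlapping members), against 7.18% among the other LNCap silencers that overlapped K562. In 293T 2 members had an identical interval (3.28% of the overlapping members), against 3.33% among the other LNCap silencers that overlapped 293T. An overlap of at least 50% of the shorter interval was reached by 20.6% of all members with K562 and by 3.6% with 293T. The ratios of these shares to those of the other LNCap silencers were 1.58 and 1.45.

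The K562 share did not fall at any step in run length, although the steps were uneven. It was 14.2% for LNCap silencers with no neighbour within 500 bp, 17.9% in runs of 2, 20.6% in runs of 3, 20.7% in runs of 4, 32.8% in runs of 5 and 41.8% in the 55 silencers of runs of 6 or more. In runs of 6 or more, 23 silencers overlapped K562. Arrays of 14, 9 and 6 silencers in the neighbourhoods on chromosomes 21 and 10, described further on, held 8, 6 and 5 of them. The other arrays of this class held 2, 1, 1 and 0, so its share rests mostly on these neighbourhoods. Silencers in the longest runs were also wider. Their mean width was 89.3 bp in runs of 4 and 149.1 bp in runs of 6 or more, with runs of 5 in between. Among LNCap silencers outside arrays, the K562 share was 10.5% at 50 bp and 40.8% over 200 bp, and the 293T share 2.24% and 8.15%. Whether the shares rise with run length at like width was not tested. Runs of 3 and runs of 4 did not differ beyond their intervals (19.5 to 21.6 and 18.3 to 23.4). The 293T shares over the same classes were 3.02%, 3.68%, 3.78%, 3.96%, 7.66% and 9.09%. Their intervals overlapped from runs of 2 to runs of 4, and the 5 overlapping silencers in runs of 6 or more gave an interval of 3.95 to 19.6%.

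**Figure D1:**
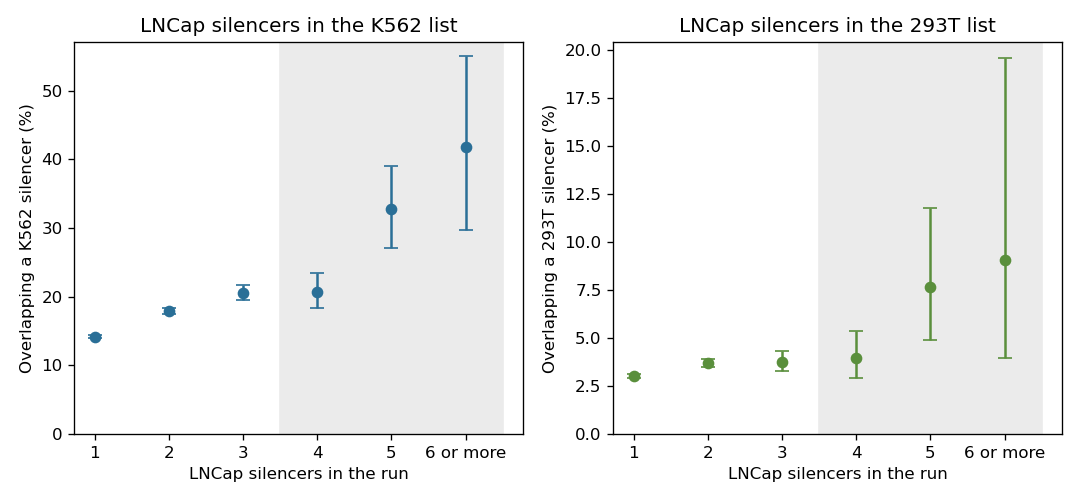
Percent of autosomal LNCap silencers that overlap a K562 silencer (left) and a 293T silencer (right) by the number of silencers in their run; points are shares, bars are 95% Wilson intervals and the shaded classes are the arrays. The K562 share lies at 14.2% for single silencers, near 20.7% for runs of 3 and 4, and at 41.8% for runs of 6 or more, and the 293T share at 3.02% and 9.09% for the first and last class. Most K562 overlaps of the last class lie in neighbourhoods on chromosomes 21 and 10. Silencers of the last class are also wider on average than those of the other classes, and the shares are not adjusted for width.

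The K562 difference was also seen at exactly 50 bp and in each wider class, while the 293T difference was clear only at 50 bp. Both differences were smaller against silencers weighted for width and score and against silencers nearby. Among silencers of exactly 50 bp, 18.8% of members and 10.5% of others overlapped K562, and 4.31% of members and 2.24% of others overlapped 293T. Among silencers wider than 200 bp, K562 overlapped 64.6% of 79 members and 40.8% of the others. When the other silencers were weighted to the members' widths and scores, the ratio was 1.42 for K562 and 1.41 for 293T. When the others were limited to those within 100 kb of an array, the ratio was 1.27 for K562 (1.13 to 1.43) and 1.16 for 293T, whose interval of 0.876 to 1.54 includes 1.

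By score, the K562 share was higher in arrays in each of 5 classes. For scores of 2.0 to 2.1 it was 14.3% in arrays and 10.6% in others, and for scores of 2.7 to 2.9 it was 35.4% in arrays and 20.3% in others. For scores of 3.0 and above it was 35.6% in arrays and 24.7% in others. The 293T share went the other way in the lowest class, with 7 of 350 members (2.00%, 0.972 to 4.07) against 2.38% of others, a difference within the counting error. In the other 4 classes it was higher in arrays, with 8.23% against 4.02% for scores of 2.7 to 2.9.

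Counted by array, K562 silencers reached more than every second array. A K562 silencer lay within the span of 56.1% of the 294 arrays (50.4 to 61.7), and 2 or more lay in 82. Any K562 silencer lay in the span of 16.9% of all LNCap runs of any length, most of which are single silencers with a far narrower span. No share over all runs was worked out for 2 or more. A member itself was overlapped in 50% of the arrays, at least 2 members in 92, and every member in 7. For 293T the span held a silencer in 52 arrays (17.7%, 13.8 to 22.5), against 3.73% of all runs, and a member was overlapped in 44. The counts of arrays with overlapped members are a description only, because each array has at least 4 members that can be overlapped. Of all autosomal LNCap silencers, 15.3% overlapped K562 and 3.22% overlapped 293T, and no share over runs of like length was worked out.

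Arrays of different lines coincided less often. A K562 array overlapped 16 LNCap arrays (5.44%, 3.38 to 8.66), against 0.144% of LNCap runs of any length. Seen from K562, 17 of its 240 arrays (7.08%) overlapped a LNCap array, while 60.4% held at least 1 LNCap silencer. A 293T array overlapped 2 LNCap arrays (0.680%), against 0.0302% of all runs, and of the 204 arrays in 293T 34 (16.7%) held a LNCap silencer. No silencer of either comparison line lay within 36.1% of the LNCap arrays, while 29 held silencers of both lines and 23 held 293T but no K562 silencers. Of single LNCap silencers, which have a far narrower span, 83.5% overlapped neither line and 0.714% both. No share over all runs was worked out for 293T without K562, or for the K562 and 293T arrays that held a LNCap silencer.

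The K562 silencers that met LNCap array members were themselves grouped. Of the 242 such K562 silencers, 89 (36.8%) lay in K562 runs of 3 or more, against 5.76% of the 19905 K562 silencers that met other LNCap silencers and 4.53% of all autosomal K562 silencers. K562 runs of 4 or more held 50 of them (20.7%), against 1.03% of those that met other LNCap silencers. In 293T, 16 of the 62 silencers that met members (25.8%) lay in 293T runs of 3 or more, against 4.97% of those that met other LNCap silencers and 4.43% of all. Silencers that meet members of the same array must lie within its short span, so part of this grouping follows from how they were picked. Without the 2 groups of arrays on chromosomes 21 and 10, K562 runs of 4 or more held 26 of 209 K562 silencers (12.4%) and K562 runs of 3 or more held 30.1%, while 293T runs of 3 or more held 12 of 56 (21.4%).

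Their K562 scores, which the rule did not use, were higher than those of the whole list but not clearly higher than those of other shared silencers. Above the K562 median of 2.2 lay 62.4% of the 242 (56.1 to 68.3), against 56.2% (55.5 to 56.9) of the K562 silencers that met other LNCap silencers and 46.5% of all. The first interval just includes the second share. In 293T 33 of 62 lay above that list's median of 2.3 (53.2%, 41 to 65.1), against 50.9% and 43.7%. The 293T interval includes both of the values it is set against.

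Silencers of the other lines also lay in the gaps of the LNCap arrays. K562 silencers covered 21.4% of the bases of the members and 12.8% of the bases of the gaps between them, against 11.6% of the bases of single LNCap silencers. In the gaps of LNCap runs of 3 and of 2 the K562 coverage was 11.3% and 10.6%. In the first 500 bp outside an array it was 3.68%, against 1.88% beside single silencers. 293T silencers covered 3.11% of the members and 2.5% of the gaps, against 1.87% of single silencers, and 1.13% of the first 500 bp outside arrays, against 0.778%.

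Farther out the coverage stayed above that around single silencers. Between 500 and 1000 bp from an array K562 silencers covered 1.91% of bases, against 0.563% at the same distance from single silencers, and between 50 and 100 kb they covered 0.849%, against 0.527%. The near values rested partly on 2 groups of arrays on chromosomes 21 and 10, described further on: without them K562 silencers covered 1.22% between 500 and 1000 bp, and 1.47% between 1 and 2 kb, where the value with them was 2.44% and that around single silencers 0.591%. The 293T values at 50 to 100 kb were 0.486% and 0.413%. Counted within 100 kb on either side, an array had a median of 17 LNCap, 16 K562 and 11 293T silencers around it, against 10, 10 and 9 for single silencers. LNCap arrays therefore lay in regions with more called K562 and 293T silencers than single silencers did. The LNCap count uses the calls that formed the arrays and is given as a description only.

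**Figure D2:**
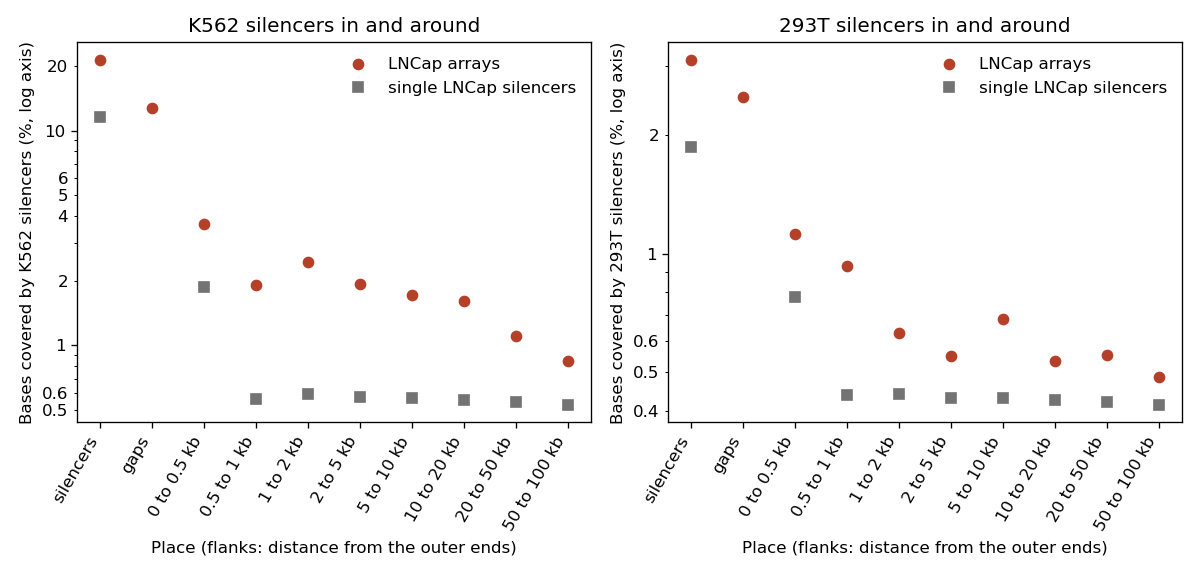
Percent of bases covered by K562 silencers (left) and 293T silencers (right), on log axes, inside LNCap silencers, in the gaps of arrays and in flanks up to 100 kb outside; circles are the 294 LNCap arrays and squares the single LNCap silencers, which have no gaps. K562 coverage is 21.4% inside members, 12.8% in gaps and 0.849% at 50 to 100 kb from arrays, against 11.6% inside and 0.527% at 50 to 100 kb for single silencers.

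Arrays were spread over all autosomes, unevenly. The share of a chromosome's LNCap silencers that lay in arrays was highest on chromosomes 21 (2.85%), 20 (1.95%), 19 (1.71%) and 17 (1.52%), and lowest on chromosomes 13 (0.480%) and 18 (0.513%). Chromosome 19 had 39.3 arrays per 100 Mb, against 4.37 on chromosome 13. On chromosomes 17 and 19 the K562 list (1.49% and 1.73%) and the 293T list (1.56% and 2.26%) also had more than 1% of their silencers in arrays. On chromosome 21 the K562 share was 3.71%, while no 293T silencer lay in an array there.

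The excess in the other lines was seen on most chromosomes. The K562 share of members exceeded that of other LNCap silencers on 20 of 22 autosomes and the 293T share on 16. The exceptions for K562 were chromosome 4, with 5.66% of 53 members against 14.8% of others, and chromosome 16, with 12.5% of 24 members against 14.5%. Those for 293T were chromosomes 1, 2, 11, 13, 21 and 22, and on 13, 21 and 22 no member overlapped 293T. Some of the 293T differences in the other direction were small and rested on few members. On chromosome 6 the shares were 3.70% of 54 members and 3.14% of others, and on chromosome 16 they were 4.17% of 24 and 3.49%. The K562 shares of members on chromosomes 21 (46.3%), 10 (44.9%) and 22 (44%) stood above those of the other chromosomes. On chromosomes 21 and 10 they came largely from the 2 neighbourhoods described next.

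**Figure D3:**
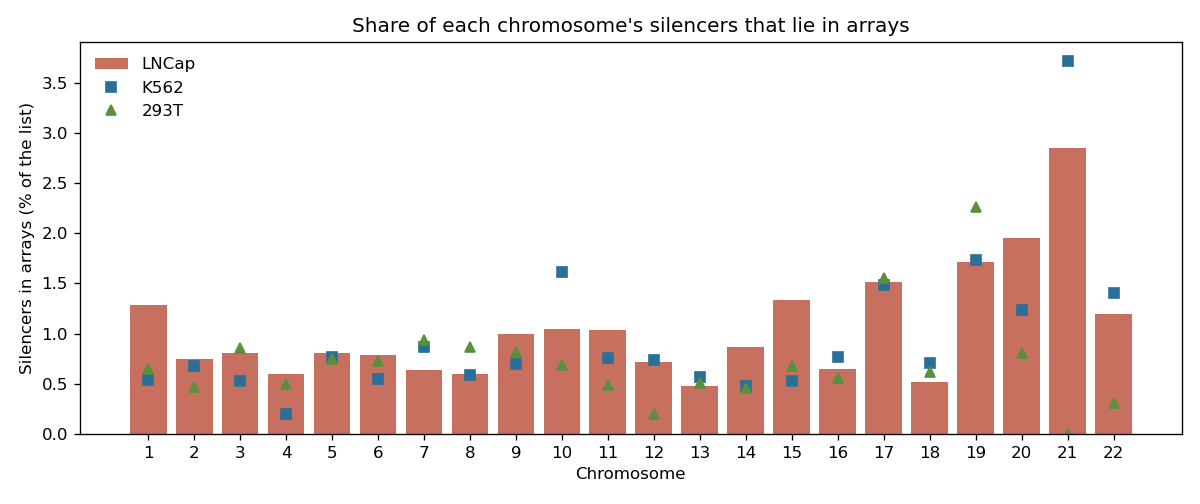
Percent of each autosome's silencers that lie in arrays, for LNCap (bars), K562 (squares) and 293T (triangles). LNCap and K562 are both highest on chromosome 21, at 2.85% and 3.71%, where 293T is at 0.

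Arrays were seldom close to one another, with 2 exceptions. The median distance to the next array on the chromosome was 4192 kb, and 31 of 294 arrays had another within 100 kb. These formed 12 neighbourhoods, of which only 2 held 3 or more arrays. They were picked out after their values were seen, and together they hold 11 arrays and 65 members. Whether these places are unique or repeated sequence was not tested, as no human genome or repeat annotation was used here, so how well reads could be placed in them is unknown.

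The first, chr21:10657201-10717177 (hg38), held 6 LNCap arrays with 37 members in 59.98 kb. In all, 66 LNCap, 60 K562 and 7 293T silencers lay there, and K562 had 5 arrays of its own while 293T had none. LNCap silencers covered 26.2% of its bases and K562 silencers 27.4%, against 1.55% for 293T. The median scores, 2.2 in LNCap and 2.2 in K562, equalled those of the whole lists. Without it, 4 of the 1374 remaining LNCap silencers of chromosome 21 (0.291%) lay in arrays, and none of these 4 overlapped K562.

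The second, chr10:38491701-38580251, held 5 LNCap arrays with 28 members in 88.6 kb. There the lists had 43 LNCap, 59 K562 and 16 293T silencers, and K562 had 7 arrays and 293T had 1. Its LNCap scores were high, with a median of 2.9 against 2.2 for the list, while the K562 median was 2.4 and the 293T median 2.55. Without it, 11 of the 41 remaining members of chromosome 10 (26.8%) overlapped K562, against 14.6% of other silencers there. With both neighbourhoods left out, a setting chosen after seeing the data, 21.9% of 1185 members overlapped K562 and 4.73% overlapped 293T, and the ratios to other LNCap silencers were 1.44 and 1.48. The count of LNCap arrays that overlapped a K562 array was more dependent on them, at 3.18% of 283 arrays. K562 coverage without them was 18.1% in members, 11.6% in gaps and 3.28% in the first 500 bp outside.

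**Figure D4:**
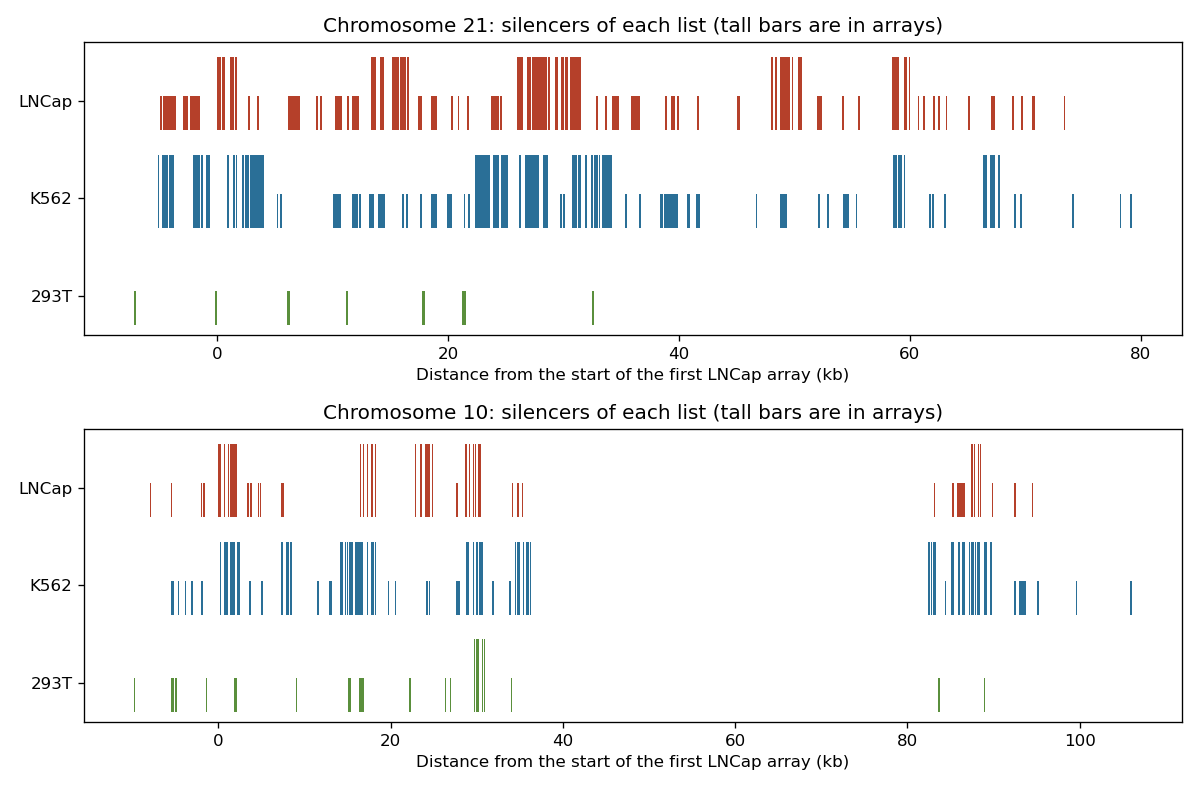
Silencers of the LNCap, K562 and 293T lists in the neighbourhoods on chromosome 21 (top) and chromosome 10 (bottom), as bars along the distance in kb from the start of the first LNCap array; tall bars are silencers in arrays of their own list. LNCap and K562 silencers are dense in both places, with 66 and 60 on chromosome 21 and 43 and 59 on chromosome 10, while 293T has 7 and 16 (counts from the first to the last LNCap array).

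The largest array lay in the first neighbourhood, at chr21:10683201-10688701. Its 14 silencers spanned 5500 bp and filled 62.7% of it, and their scores along the chromosome were 2.4, 3.2, 2.1, 2.1, 2.0, 2.1, 2.3, 2.3, 2.3, 2.8, 2.3, 2.5, 2.4 and 2.1. The second silencer was the strongest and the widest ones, of 950 and 900 bp, both scored 2.1. Of the 14 members, 8 overlapped a K562 silencer and none a 293T silencer, and 8 K562 silencers, which belonged to 2 K562 arrays and a run of 2, covered 2600 bp of the span.

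The next largest, chr10:38491701-38493901 in the second neighbourhood, had 9 silencers that scored 3.4, 3.3, 2.9, 3.1, 3.0, 2.5, 2.7, 2.9 and 2.5. Every member lay above the list's median of 2.2. A K562 array of 4 silencers, scored 2.3, 2.4, 3.4 and 3.1, overlapped 6 members, and a pair of 293T silencers overlapped only the last member. A wide K562 call of 601 bp ran across members 5 to 8, which are separate calls in LNCap, and into member 9.

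The third, chr5:17107151-17108451, was the densest of the large ones, with 8 silencers whose 7 gaps were all 50 bp and which filled 73.1% of 1300 bp. Its scores were 2.2, 2.6, 2.4, 2.4, 2.7, 2.2, 2.3 and 2.1. A single K562 silencer of 150 bp, scored 2.5, met the 2 neighbouring members 6 and 7, and no 293T silencer lay there. The remaining 6 members were called in LNCap alone.

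The 4 arrays of 6 silencers differed in how far the other lines shared them. At chr10:38520350-38522251 the LNCap scores were 3.4, 5.9, 2.2, 3.1, 2.1 and 2.1, and this was the only LNCap array that overlapped both a K562 and a 293T array. The K562 silencer over the member at 5.9 scored 5.1 and was also the highest of the 6 K562 silencers there, and a 293T silencer scored 4.6 where it overlapped the member at 2.2. At chr17:39188107-39190041 and chr11:62684201-62685751 1 member each overlapped K562, and scores ran from 2.0 to 2.5 and from 2.0 to 2.9. At chr1:11093851-11095201 no K562 silencer lay in the span, and the member with the highest score, 3.4, was the one that met a 293T silencer, scored 2.7.

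Among the 5 arrays of 5 silencers with the longest spans, chr7:16397701-16400377 was the one with most of its span under K562 silencers. Its 5 members scored 3.1, 2.6, 2.0, 2.7 and 2.0, and all 5 were overlapped by a K562 array of 5 silencers that scored 3.8, 3.5, 3.2, 5.5 and 2.7 and covered 2226 of 2676 bp. The first member and the first K562 silencer had identical ends, and no 293T silencer lay there. The others were chr21:10705181-10707851 and chr21:10657201-10658801 with 1 member each in K562, chr10:38508151-38509965 with all 5, and chr20:31230051-31231651 with 4, the last 2 also with 2 members each in 293T.

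**Figure D5:**
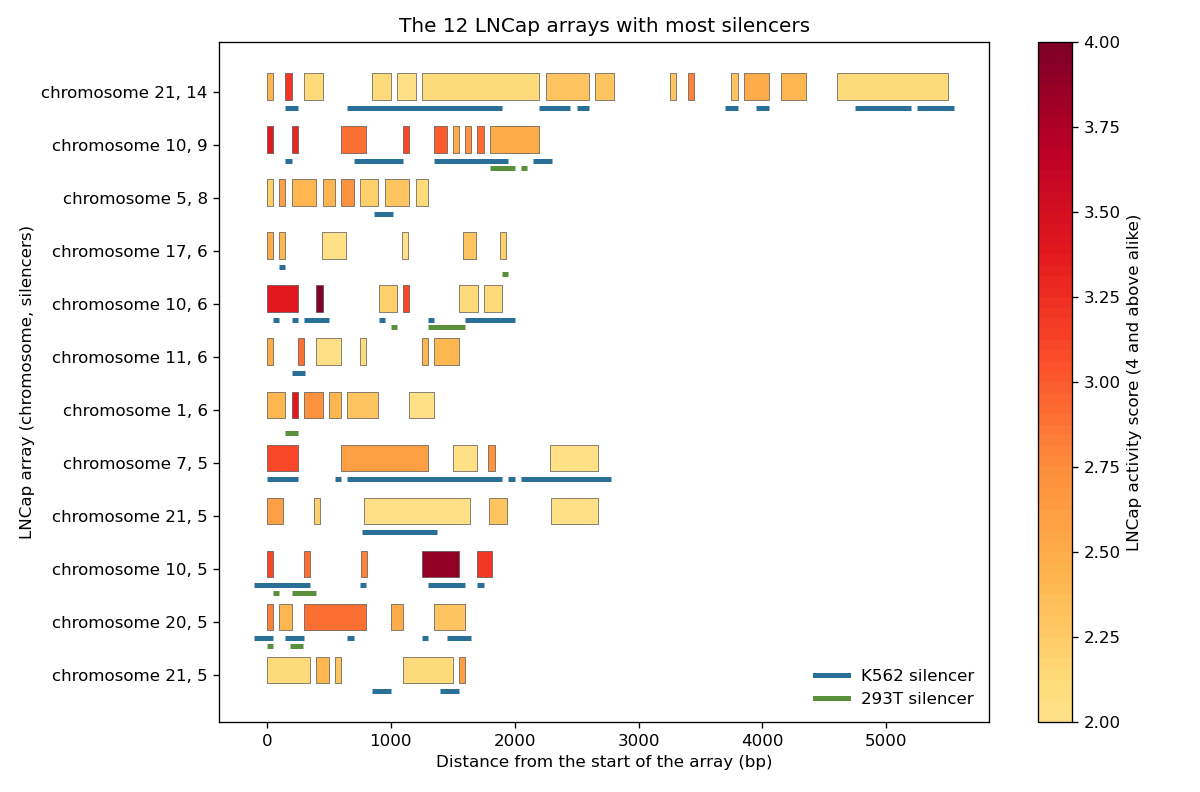
The 12 LNCap arrays with most silencers, drawn along the distance in bp from the start of each array; boxes are LNCap silencers coloured by activity score (scores of 4 and above share 1 colour), and the lines under them are K562 and 293T silencers. The array of 14 silencers on chromosome 21 has 8 members under K562 lines and none under 293T lines, and the array of 8 on chromosome 5 has 2 under a single K562 line.

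The other array that overlapped a 293T array, chr4:39106551-39107476, was named after its values were seen. It held 5 silencers over 925 bp with a median score of 2.7 and a highest score of 3.8. All 5 were overlapped by the 5 silencers of 293T there, and it was the only array in which every member was. The K562 list had 1 silencer in its span, which met none of the members.

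Among the arrays with no silencer of either comparison line in their span, the 6 with most silencers all had 5. The longest was chr19:48699873-48701465 with scores of 2.4, 2.9, 2.6, 2.0 and 2.6, and the next was chr1:21193547-21194891 with scores of 2.2, 2.5, 2.6, 2.0 and 2.2. At chr2:52448051-52449301 no member scored above 2.4, and at chr5:134257551-134258751 the highest score was 2.7. At chr1:246139851-246140951 it was 2.9, and at chr11:133158344-133159341 it was 3.2. The absence of a call in K562 or 293T says only that no window passed the authors' threshold there.

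The 3 highest member scores each stood alone within their array. At chr11:75297707-75298257 the 4 silencers scored 3.7, 7.9, 2.4 and 2.1, and no K562 or 293T silencer lay there. At chr1:45367601-45368101 they scored 2.5, 2.2, 2.8 and 6.9, and the member at 6.9, which was 200 bp wide, overlapped a K562 silencer scored 4.8. At chr4:186906751-186907501 they scored 2.4, 2.3, 6.2 and 2.3, and a 293T silencer scored 2.1 lay in the 100 bp gap right after the member at 6.2. In each of these arrays the other members stayed at 3.7 or below.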

How the data were processed

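Per the labels, the genome was sheared, cloned into the Ss-STARR-seq vector and transfected, and plasmid DNA and RNA were sequenced. The authors deposited 1 silencer list per line with chromosome, start, end and an activity score, per the file headers. Bowtie2 and SAMtools, without versions, and build hg38 are named per the submitters' processing notes. How regions were called, at which thresholds, and whether libraries were pooled is not given in the sources used here. Positions are printed as deposited.

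Broken lines (25 in LNCap, 12 in K562, 58 in 293T) and widths over 5000 bp were left out. Runs were formed after sorting by start. Overlap was at least 1 bp, and shares carry 95% Wilson intervals. Arrays named are the 12 with most silencers (ties by span), up to 6 that overlap arrays of both other lines (only 1 did), the 6 with most among those without K562 or 293T silencers, and the 3 with the highest finite score. Members, tests and lists were chosen with earlier results of these data known. No human genome or annotation was used here, so no sequence, gene or repeat is given. Scripts were tested on simulated data (Python 3.11.15, numpy 2.4.6, pandas 2.3.3, matplotlib 3.10.9).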

Additional observations from a re-analysis of the deposited data

How the results depend on the processing

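Of 86 values recomputed under 14 alternatives, 52 stayed within the limits set (1.5 times for counts, the 95% interval for the rest), 34 moved and none reversed. Of the 52, 8 came from merging touching silencers, which changed nothing because no silencers of a list touch. Over all 15 settings in which they were computed, the ratios of members to other LNCap silencers were above 1 for K562 and for 293T, but for 293T the interval included 1 in 2 of them: gaps of at most 250 bp (1.26, 0.882 to 1.80) and others within 100 kb of an array (0.876 to 1.54). With gaps of at most 250 bp there were 716 members and 1.31 arrays per 1000 silencers (2.23 in the report), and 2.31% of arrays overlapped a K562 array and 0 a 293T array. With gaps of at most 1000 bp there were 2381 members and 4.22 arrays per 1000, with a K562 share of 21.5% and ratio of 1.41. Runs of 3 or more gave 6680 members, 15.98 arrays per 1000, a K562 share of 21.2% and a ratio of 1.41. Runs of 6 or more gave 55 members, 0.0532 arrays per 1000, shares of 41.8% (K562) and 9.09% (293T), ratios of 2.73 and 2.83, and 28.6% and 0 of arrays overlapping an array of these lists. Most K562 overlaps at this setting lay in the neighbourhoods on chromosomes 21 and 10. Members at this setting were also wider, with a mean of 149.1 bp against 95.5 bp in the report. Silencers above each list's median score gave 260 members, 0.938 arrays per 1000, ratios of 1.87 and 2.11, and 3.28% of arrays overlapping a K562 array. An overlap of 50% of the shorter silencer gave 20.6% and 3.60%, with ratios of 1.58 and 1.45. Silencers of exactly 50 bp gave a K562 share of 18.8% and ratio of 1.79. Others within 100 kb of an array gave ratios of 1.27 and 1.16. Of the 3 alternatives chosen after seeing the data, leaving out the neighbourhoods of 3 or more arrays gave 3.18% of arrays overlapping a K562 array, and silencers starting at 0 or 1 modulo 50 gave a K562 share of 26.6% and ratio of 1.76. Counting each array once moved no share or ratio beyond its interval. The changes in counts follow from the wider or narrower rule; for the other values the cause was not tested. Checks of 2 further choices, on base composition and gene context, were not run, because no human genome or annotation was used here. No paired analysis was possible because each line has 1 list and no test over samples was made.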

Other observations

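Chromosome X lies outside the rule. There the LNCap list had 10 arrays with 43 of its 6056 silencers (0.710%), the K562 list had 3 arrays with 12 of 5656 (0.212%), and the 293T list had 8 arrays with 34 of 6064 (0.561%). The K562 and 293T lists shared few arrays with each other, since 3 of the 240 autosomal K562 arrays overlapped a 293T array. Of the 12 neighbourhoods of arrays, chr20:31175301-31231651 was the only other one with more than 1 K562 array, holding 2 LNCap and 2 K562 arrays with 22 LNCap, 31 K562 and 6 293T silencers.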
